A study of Rattus norvegicus with 16 samples.

Results

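Immediate early transcription factor genes, 6 in all, were followed in the RNAseq libraries of 16 rat hearts, 10 of saline-treated controls and 6 of the DOX high group. The genes were Fos (ENSRNOG00000008015), Jun (ENSRNOG00000026293), Junb (ENSRNOG00000042838), Egr1 (ENSRNOG00000019422), Atf3 (ENSRNOG00000003745) and Myc (ENSRNOG00000004500), 6 of the 32545 genes in the tables. They were picked by identifier with their DOX high to saline difference, and their joint variation between hearts, already known from these data, so threshold calls and p values printed for them below describe these hearts and are not independent evidence. All animals were male Wistar rats, matched for age and weight, and each library came from the heart of 1 rat, excised in week 6. Rats of the DOX high group were given doxorubicin, an anthracycline used in cancer chemotherapy, as 5 weekly intravenous injections of 3 mg per kg, a cumulative dose of 15 mg per kg. Saline rats had received weekly intravenous saline, 5 injections by the sample labels and 1 more by the study's methods. Heart tissue holds cardiomyocytes together with endothelial, fibroblast and immune cells, and in such bulk tissue fewer cells of a type and less RNA per cell cannot be told apart.

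Immediate early genes are the first to be transcribed when a cell meets a growth factor, a neurohormone, stretch or stress, because the proteins that switch them on are already present and only need to be activated. Serum response factor bound at CArG boxes and CREB bound at cyclic AMP response elements (CRE) are well known examples. Fos, Jun and Junb encode subunits of AP-1, a dimer of basic leucine zipper proteins, and Atf3 encodes a stress-induced relative that pairs with Jun proteins. Egr1 encodes a zinc finger factor that binds GC-rich sites, and Myc a basic helix-loop-helix factor that, paired with Max, drives ribosome production and growth. Their mRNAs are short-lived, so that their levels follow the recent state of the tissue, and in heart muscle they are known to be induced by pressure overload, adrenergic stimulation and ischemia.

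Egr1 and Junb, 2 of the 6 genes, had an entry in the RefSeq promoter table (rat assembly GRCr8), and Fos, Jun, Atf3 and Myc had none. The 250 bases before the start of each are shown because immediate early genes are known to be switched on through elements close to their start, with CArG boxes, the CRE core TGACG and the TATA box TATAAA in capitals, on either strand. The Egr1 stretch lies at chr18:26736828-26737077 and the Junb stretch at chr19:40080876-40081125, both on the plus strand.
Egr1: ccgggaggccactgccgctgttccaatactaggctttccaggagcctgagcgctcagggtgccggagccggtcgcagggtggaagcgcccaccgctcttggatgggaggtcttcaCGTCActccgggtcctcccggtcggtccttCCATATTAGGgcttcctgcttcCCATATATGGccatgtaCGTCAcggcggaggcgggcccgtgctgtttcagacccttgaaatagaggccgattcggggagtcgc
Junb: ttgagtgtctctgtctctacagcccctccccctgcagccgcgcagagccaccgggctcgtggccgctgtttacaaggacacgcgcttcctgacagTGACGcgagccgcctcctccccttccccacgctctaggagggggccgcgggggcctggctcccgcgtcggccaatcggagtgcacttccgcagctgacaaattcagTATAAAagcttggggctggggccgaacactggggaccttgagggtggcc
The Egr1 stretch held 2 CArG boxes, CCATATTAGG and CCATATATGG, and 2 CRE cores. Only 1.5% of the 33469 promoters in the table held any CArG box in 250 bases, and 7 of them held 2 or more. The Junb stretch held no CArG box, 1 CRE core and 1 TATA box, which 18.2% and 12.9% of all promoters held. The complete CRE TGACGTCA (1.59% of promoters), the AP-1 sites TGAGTCA and TGACTCA (4.05%), the EGR site GCGNGGGCG (4.29%) and the E-box CACGTG (5.59%) were in neither stretch. The CRE core is part of the complete CRE. These counts describe letters in a window, and elements farther upstream were not searched.

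The saline libraries held 13784896 to 16842418 fragments and the DOX high libraries 15369246 to 18025615. The rats were numbered, and all 6 rats numbered 5 to 10 were saline-treated, while rats 30 to 39 were 4 saline-treated (34 to 37) and 6 DOX high rats, so that animal number and treatment overlap in part. Over all genes tested, the library labelled saline rat 37 was more like the DOX high libraries (median r 0.973 of log2 CPM, fragment counts scaled to the library total) than the other saline libraries (0.946), and in each of the other 9 saline libraries this order was the reverse. Whether the label of this library is right was not tested, and it is kept in the saline group as labelled. DOX high rat 32 stood farthest from its own group (median r 0.918) and had the largest library scaling factor, 1.362 by TMM. Values with and without these animals are therefore given beside the results that rest on them.

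All 6 factors had higher median levels in DOX high than in saline hearts. The fold changes fitted by edgeR were largest for Atf3 and Myc, intermediate for Junb, Fos and Egr1, and small for Jun. Levels are given as TPM, which divides counts by gene length and scales each library to a fixed total, so that levels can be compared between genes. Fold changes come from the fragment counts scaled by edgeR's trimmed mean of M values (TMM) and carry their standard error (SE). The ratio of group medians in TPM gave another order, with Fos (5.29) between Atf3 (9.09) and Myc (4.48). All 6 genes passed the filter on low counts. Of these, 3 (Junb, Atf3 and Myc) were past the adjusted p threshold of 0.05, all higher in DOX high hearts, and Fos, Jun and Egr1 were not. Among all 13607 genes tested, 6.25% were past this threshold in either direction and 4.01% were past it and higher. The median log2 fold change was 1.33 over the 6 genes and -0.0047 over all genes. Since the genes were chosen with this contrast in view, these shares are a description. None of the 6 was past the threshold when rats 30 to 39 were compared alone or when the number range was a covariate. In those fits 0 of 13730 and 2 of 13607 genes passed, respectively. Junb, Atf3 and Myc passed in rats 30 to 39 without saline rat 37, as part of 307 of 13946 genes. That fit was added after seeing the data.

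Fos, the inducible partner of the Jun proteins in AP-1, ranged from 1.06 to 35.1 TPM in saline hearts (median 4.18) and from 7.15 to 27.2 TPM in DOX high hearts (median 22.1). On the TPM scale the highest level of all 16 hearts was that of saline rat 6, and 4 of 10 saline hearts lay at or above the lowest DOX high heart, rat 30. On the TMM-scaled CPM scale saline rat 6, at 30.1 CPM, was behind DOX high rats 38 (33.4 CPM) and 39 (31.3 CPM). The log2 fold change was 1.30 ± 0.50 (SE). It was 1.68 ± 0.44 without saline rat 6, and leaving out the highest saline heart was bound to raise it. Of the 16 fits with 1 rat left out, that was the only 1 in which Fos passed the threshold. The lowest library, saline rat 7, held 18 Fos fragments, with an exact 95% Poisson interval of 10.67 to 28.45 that covers counting error only. The lowest Myc library, saline rat 8, held 41 fragments (29.42 to 55.62) and the lowest Atf3 library, saline rat 9, held 57 (43.17 to 73.85), so counting error also bears on low values of these genes.

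Jun, the AP-1 subunit that can also pair with itself, was the most abundant of the 6 in saline hearts, at 34.7 to 83.4 TPM (median 51.2). In DOX high hearts it ranged from 53.3 to 152 TPM (median 62.8). The top value was DOX high rat 32, and the other 5 DOX high hearts, up to 73.1 TPM, lay within the saline range. The log2 fold change of 0.33 ± 0.16 was 0.18 ± 0.15 without rat 32.

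Junb, an AP-1 subunit that activates transcription more weakly than Jun, ranged from 15.6 to 48.1 TPM in saline hearts (median 25.003) and from 39.9 to 88.3 TPM in DOX high hearts (median 80.5). On the TPM scale 2 saline hearts, rats 6 and 37, lay above the lowest DOX high heart, rat 30. On the TMM-scaled CPM scale the groups did not overlap, with 54.5 CPM in saline rat 37 as the highest saline value and 59.1 CPM in DOX high rat 30 as the lowest DOX high value. Junb was the only one of the 6 without overlap, and 0.595% of all genes tested lay higher in every DOX high heart than in every saline heart. Its log2 fold change was 1.37 ± 0.18.

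Egr1 ranged from 3.53 to 46.7 TPM in saline hearts (median 12.7) and from 21.2 to 52.9 TPM in DOX high hearts (median 39.3). On the TPM scale saline rat 6 was second of all 16 hearts, behind DOX high rat 32, and DOX high rat 30 was the lowest of its group, as for Fos. On the CPM scale the highest saline heart was rat 34 (84.6 CPM), ahead of rat 6 (78.8 CPM). Of the 6 DOX high hearts, 4 lay above every saline heart on that scale, while rats 33 (83.3 CPM) and 30 (55.2 CPM) did not. Its log2 fold change was 1.15 ± 0.40.

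Atf3, which cells raise under many forms of stress, ranged from 1.67 to 26.7 TPM in saline hearts (median 3.20) and from 14.4 to 43.1 TPM in DOX high hearts (median 29.1). A single saline heart, rat 37, lay inside the DOX high range, and the next saline heart, rat 36, was at 12.9 TPM. For Atf3 the log2 fold change was 2.05 ± 0.49, a fold of 4.14, and without saline rat 37 it was 2.54 ± 0.39. It lost the threshold when DOX high rat 38 (adjusted p = 0.0526, edgeR) or rat 39 (adjusted p = 0.0525, edgeR) was left out.

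Myc was the least abundant, at 1.35 to 11.8 TPM in saline hearts (median 2.55) and 7.85 to 14.97 TPM in DOX high hearts (median 11.4). Saline rat 37 held the 11.8 TPM, a level within the DOX high range, whereas the other 9 saline hearts reached 4.07 TPM at most, below every DOX high heart. The log2 fold change was 1.74 ± 0.33, a fold of 3.34, and without saline rat 37 it was 2.17 ± 0.16.

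**Figure D1:**
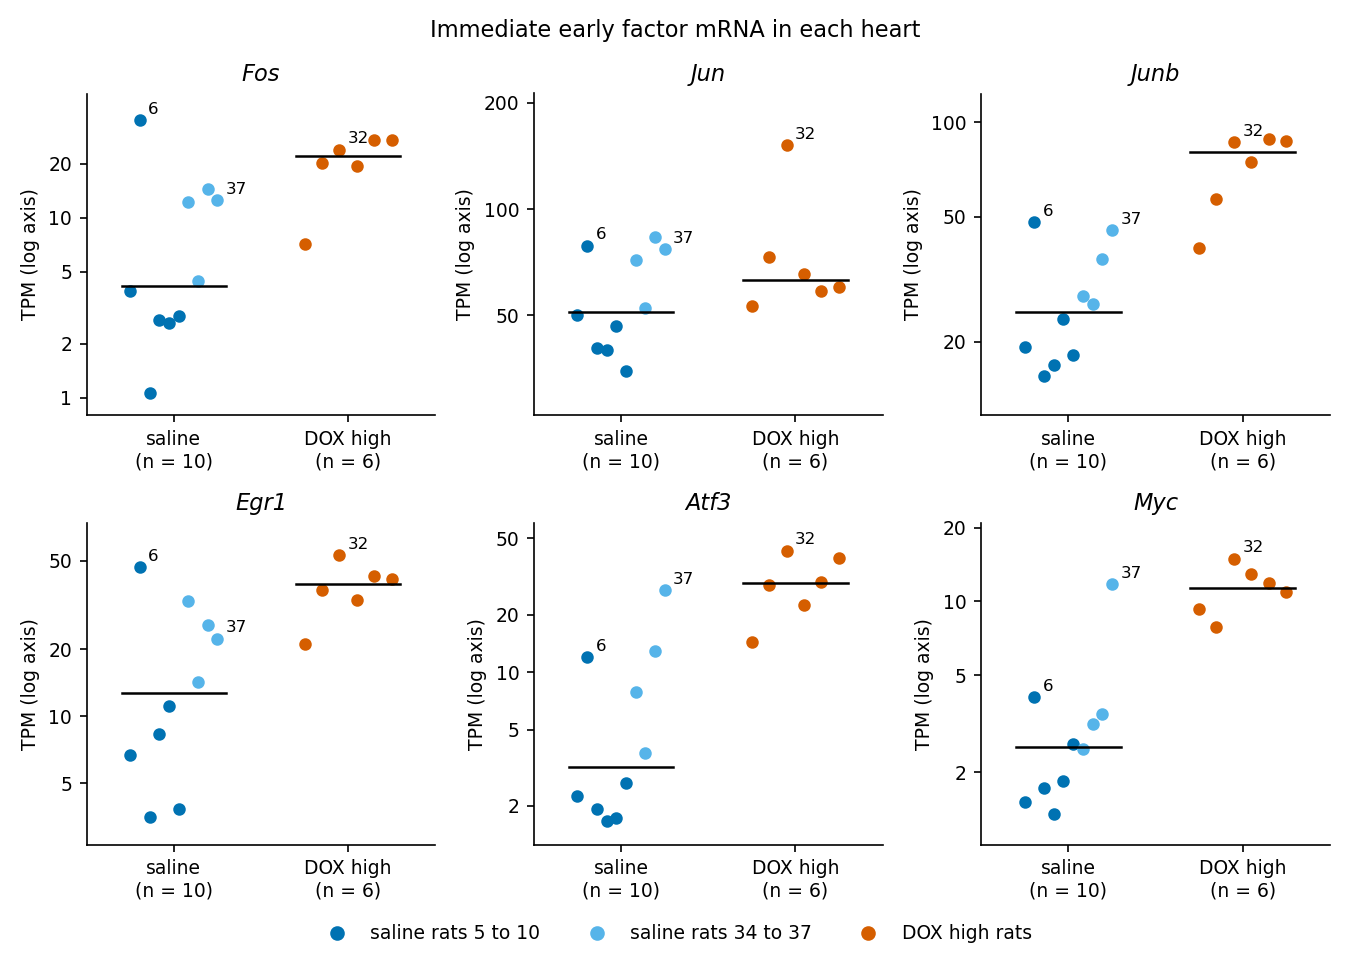
TPM of each factor in each heart on a log axis, with 1 point per rat, a black line at the group median (10 saline, 6 DOX high) and colors for saline rats 5 to 10, saline rats 34 to 37 and DOX high rats. Saline rat 6 lies highest of all hearts for Fos, saline rat 37 lies among the DOX high hearts for Atf3 and Myc, and DOX high rat 32 stands alone for Jun at 152 TPM.

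The order of the levels differed between the groups at its top and in its middle. By saline medians it was Jun, Junb, Egr1, Fos, Atf3 and Myc, and by DOX high medians Junb, Jun, Egr1, Atf3, Fos and Myc. Within saline hearts Jun exceeded Junb in 10 of 10 and Egr1 exceeded Fos in 10 of 10, whereas Fos exceeded Atf3 in only 8 of 10, so the latter neighbors were not separated in every heart. Within DOX high hearts Junb exceeded Jun in 3 of 6, so that pair had no order there, and Atf3 exceeded Fos in 6 of 6. Myc was lowest in 5 of 6 DOX high hearts, with rat 30 as the exception.

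The ratio of Jun to Junb is taken within a library and does not depend on how libraries are scaled to each other. In saline hearts the ratio of their TPM ranged from 1.64 to 2.605 (median 2.135), with Jun always above Junb. In DOX high hearts it ranged from 0.665 in rat 38 to 1.76 in rat 32 (median 1.08). Ratios in the DOX high rats were 1.34 in rat 30, 1.28 in rat 31, 0.878 in rat 33 and 0.690 in rat 39. DOX high rat 32 alone overlapped the saline hearts, of which rats 6 (1.64) and 37 (1.70) lay below it. Of the summed TPM of Fos, Jun and Junb, Junb made up 24.9% to 33.6% in saline and 32.96% to 50.7% in DOX high hearts, and 1 saline heart, rat 37, lay inside the DOX high range.

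**Figure D2:**
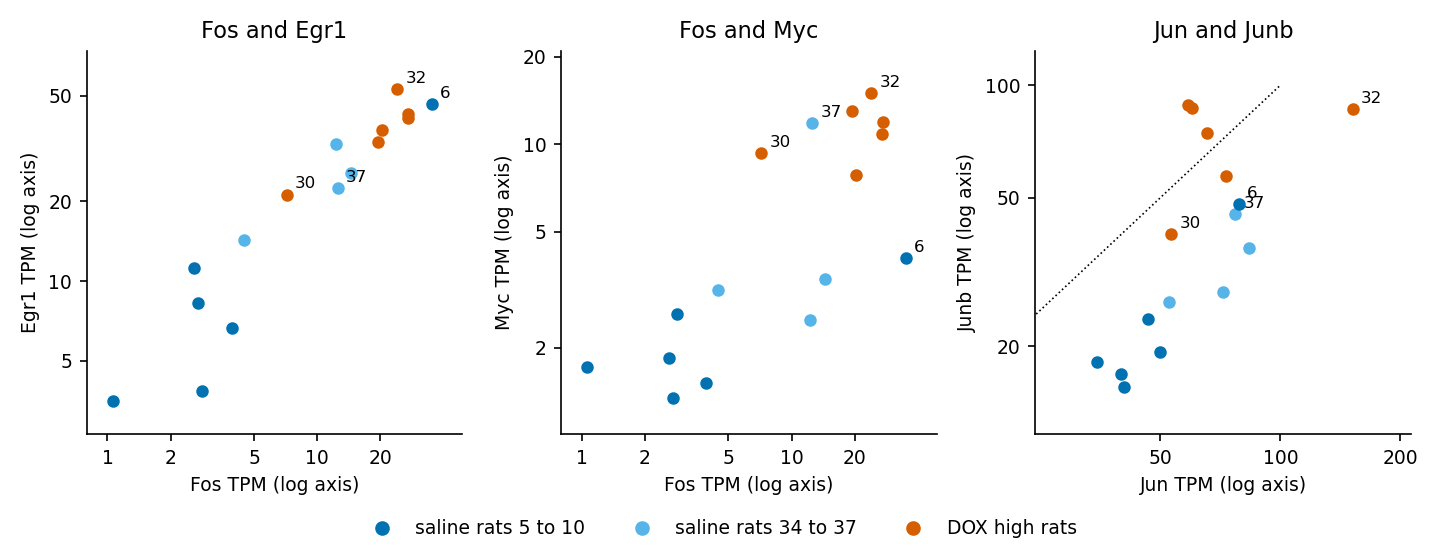
TPM of Egr1 against Fos, Myc against Fos and Junb against Jun in 16 hearts on log axes, 1 point per rat, with the dotted line marking equal TPM. Fos and Egr1 fall along 1 band through both groups, saline rat 6 has high Fos with 4.07 TPM of Myc, and 3 DOX high hearts have more Junb than Jun.

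Saline rat 6 stood apart from its group mainly for Fos, and saline rat 37 for Atf3 and Myc. Saline rat 6 was above the saline median TPM by 3.07 on the log2 scale for Fos, by 1.88 for Egr1 and by 1.91 for Atf3, but by only 0.68 for Myc and 0.62 for Jun. For Atf3 saline rat 36 was higher, by 2.02, and for Egr1 saline rat 34 was higher on the CPM scale. Its Myc, at 4.07 TPM, lay under the lowest DOX high heart (7.85 TPM) while its Fos lay above the highest on this scale. Saline rat 37 was above the saline median by 3.065 for Atf3 and by 2.21 for Myc but by 1.58 for Fos and 0.815 for Egr1. Its Fos, at 12.5 TPM, was close to those of saline rats 34 (12.2 TPM) and 36 (14.4 TPM). In the DOX high group, on the same TPM scale, rat 32 was the top heart for Jun, Egr1, Atf3 and Myc. On that scale rat 30 was the lowest for Fos, Jun, Junb, Egr1 and Atf3 but not for Myc. On the TMM-scaled CPM scale rat 32 was top for Jun only (243.7 CPM). The top hearts there were rat 38 for Egr1 (103.5 CPM), rat 39 for Atf3 (83.3 CPM) and rat 33 for Myc (24.24 CPM). For Jun, rat 39 (134.5 CPM) was then lower than rat 30 (136.6 CPM).

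**Figure D3:**
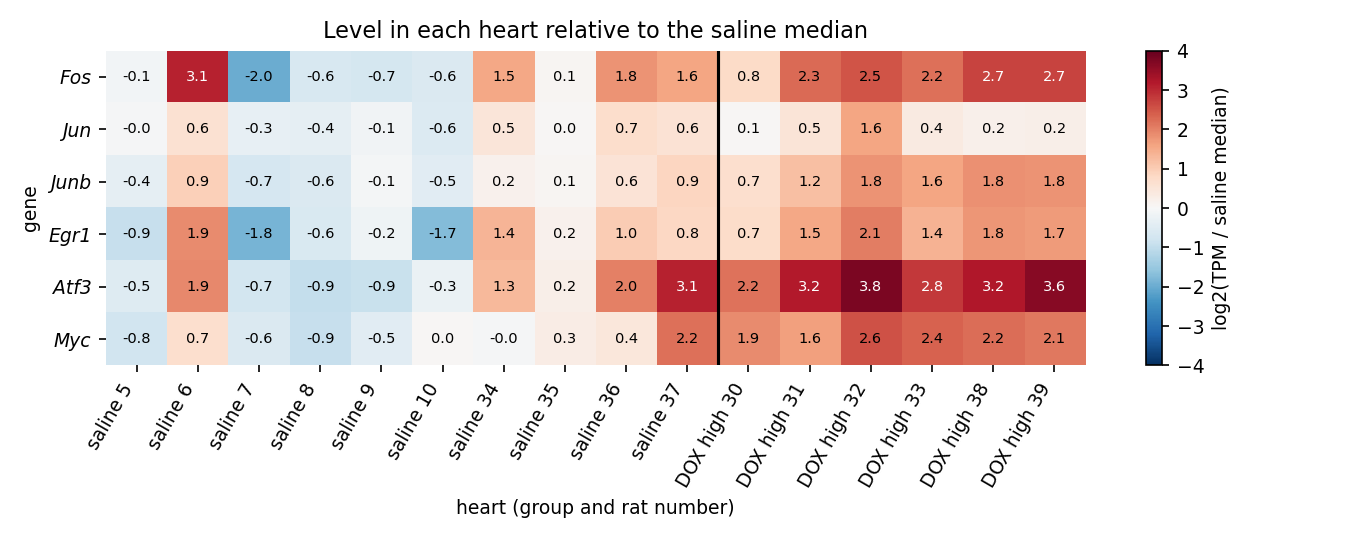
Log2 ratio of each heart's TPM to the saline median for the 6 factors, with saline hearts left of the vertical line and DOX high hearts right of it (red higher, blue lower). Saline rats 6, 34, 36 and 37 are red for Fos and Atf3, and among saline hearts Myc is strongly raised in rat 37 alone, by 2.21.

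The spread between saline hearts was wide for Fos, Atf3 and Egr1. The SD of log2 CPM over the 10 saline hearts was 1.29 for Fos, 1.24 for Atf3 and 1.11 for Egr1, against a median of 0.29 over all genes tested. Only 2.11%, 2.40% and 3.28% of genes, respectively, varied more. For Myc (0.75), 9.29% of genes varied more, but that spread rested on saline rat 37, without which the SD was 0.35 and 36.4% of genes varied more. Without rat 37 the SD of Atf3 was 0.98 and 4.24% of genes varied more. Junb (0.39) and Jun (0.33) were near the middle of all genes. Over the 6 DOX high hearts the SD was 0.66 for Fos, 0.43 for Atf3, 0.31 for Egr1 and 0.26 for Myc, and it was 0.40 for Junb and 0.33 for Jun, close to their saline values, beside a median of 0.27 over all genes. Without DOX high rat 30 it was 0.30 for Fos, 0.24 for Atf3 and 0.12 for Egr1, and without rat 32 it was 0.16 for Jun. The difference in spread between the groups was not tested, and the groups differ in size and in the range of animal numbers.

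Correlations between the factors differed from pair to pair and between the groups. In saline hearts all 15 pairs had a positive r, 0.387 or higher. With only 6 DOX high hearts each r of that group is imprecise, and differences between pairs or groups were not tested. Correlations of log2 CPM are given without p since the genes were picked with this variation in view, and the points share the library scaling. Over the 10 saline hearts Fos and Egr1 had r = 0.894 (Spearman's rho 0.891) and over the 6 DOX high hearts r = 0.974 (rho 0.943). Without saline rat 6 the saline value was 0.874. Fos and Junb had r = 0.843 (rho 0.842) in saline and 0.911 (rho 0.829) in DOX high hearts. Fos and Atf3 had r = 0.817 (rho 0.721) and 0.880 (rho 0.771). These 3 partners thus had positive r with Fos within both groups. Myc did too, at lower values of 0.473 (rho 0.527) in saline and 0.184 (rho 0.371) in DOX high hearts. In the DOX high group rat 30 was the lowest heart for Fos, Junb, Egr1 and Atf3. Without it the SD of log2 CPM of Fos fell from 0.66 to 0.30. Correlations without rat 30 were not computed, so how far the DOX high values rest on this heart was not tested.

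In saline hearts Myc had r = 0.831 (rho 0.867) with Atf3 and 0.742 (rho 0.721) with Junb. The values were lower with Fos, at 0.473 (rho 0.527), and with Egr1, at 0.387 (rho 0.612), where the rank correlation was closer to that of Junb. Without saline rat 37 Myc had r = 0.702 with Atf3, 0.611 with Junb, 0.550 with Fos and 0.467 with Egr1, and so these values lay closer together. In saline rats 5 to 10 alone Myc had r = 0.729 with Atf3, 0.508 with Junb, 0.520 with Fos and 0.282 with Egr1. Within DOX high hearts Atf3 and Myc had r = -0.106 (rho 0.257), while Junb and Myc had r = 0.545 (rho 0.771). Jun went with Egr1 in saline hearts (r = 0.806, rho 0.770), less closely in saline rats 5 to 10 alone (r = 0.654). Jun showed r from -0.231 to 0.167 with the other 5 genes in DOX high hearts, and rho from -0.257 to -0.143. Rat 32 was far above the other DOX high hearts for Jun. Correlations within that group without rat 32 were not computed.

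Over all 16 hearts the 15 pairs had a median r of 0.846, from 0.529 for Jun and Myc to 0.933 for Fos and Egr1, and a median rho of 0.838. As deviations from the group means, which removes the treatment difference, the median was 0.656, with 0.889 for Fos and Egr1 as the highest and 0.291 for Jun and Myc as the lowest. Leaving out, for each pair, the 2 hearts farthest from the median of the first gene gave a median r of 0.819.

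**Figure D4:**
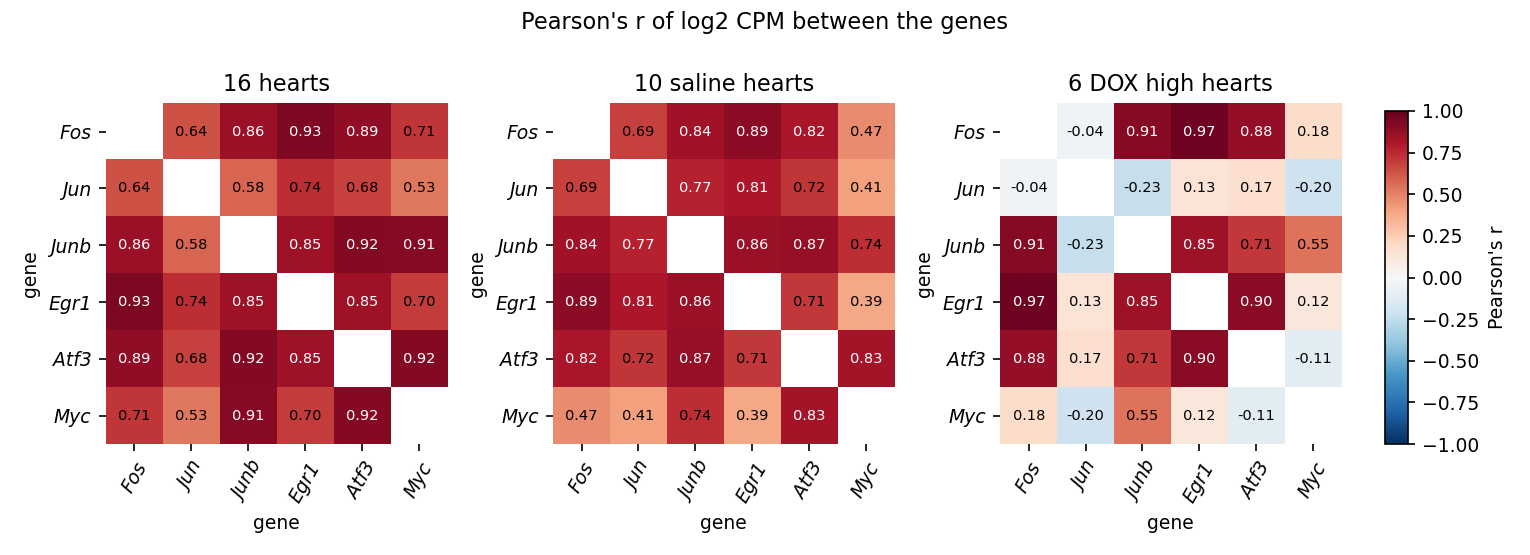
Pearson's r of TMM-scaled log2 CPM for each pair of the 6 genes over 16 hearts, 10 saline hearts and 6 DOX high hearts. Fos, Junb, Egr1 and Atf3 stay correlated in every panel (0.71 or higher), while Jun and Myc fall to between -0.23 and 0.55 in the DOX high hearts.

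Set among all other genes tested, the likeness to Fos was close for some of the factors and not for others. Over the 16 hearts Egr1 ranked 2nd of 13606 genes by r with Fos, Atf3 ranked 5th and Junb 9th, whereas Myc ranked 150th and Jun 369th. As deviations from the group means, Fos was the gene most like Egr1 of all 13606, and Myc ranked 1930th by likeness to Fos. Among the 11616 other genes whose log2 CPM averaged 1 or more, ENSRNOG00000059406 (mean r 0.790) and ENSRNOG00000003300 (mean r 0.786) were most like the 6 factors in deviations from the group means. Both were also among the 5 genes most like Fos in levels, with r of 0.893 and 0.902. Their log2 fold changes were 0.65 and 1.105 in DOX high hearts, and 3 genes were common to the 2 lists of 5. The tables do not pair these identifiers with names.

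All 6 DOX high rats carried numbers from 30 to 39, and saline rats 34 to 37 also had higher levels of the factors than saline rats 5 to 10. Median Fos was 12.4 TPM in saline rats 34 to 37 (range 4.46 to 14.4) and 2.77 TPM in saline rats 5 to 10 (range 1.06 to 35.1). Median Egr1 was 24.0 against 7.49 TPM, and median Atf3 was 10.4 against 2.09 TPM. Apart from rat 6, the saline rats numbered 5 to 10 held the 5 lowest levels of Fos, Jun, Junb, Egr1 and Atf3, in TPM, of all 16 hearts.

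In a fit of the 10 saline hearts alone the log2 difference, rats 34 to 37 minus rats 5 to 10, was above 0 for all 6 genes. It was largest for Atf3 (1.80 ± 0.54 SE; unadjusted p = 0.00734, edgeR) and Myc (1.15 ± 0.40; p = 0.0152, edgeR). Egr1 differed by 0.93 ± 0.55, Fos by 0.60 ± 0.73, Junb by 0.44 ± 0.20 and Jun by 0.44 ± 0.15. No gene passed the adjusted p threshold in this fit (0 of 13413 genes, 0%, edgeR), with an adjusted p of 0.918 or 0.919 for each of the 6. At an unadjusted p under 0.05 edgeR called 591 genes, and 2.51% of the genes tested were below it and higher in rats 34 to 37, 4 of the 6 factors (Jun, Junb, Atf3 and Myc) among them. After adjustment limma called 0 genes and DESeq2 called 22, none of the 6 factors among them. DESeq2 returned no p for Fos in this comparison, so Fos was not tested there. Without saline rat 37 the Atf3 difference was 1.16 and the Myc difference was 0.40 (p = 0.0996, edgeR). Only Jun and Atf3 of the 6 had an unadjusted p under 0.05, as did 372 of the 13598 genes tested, in either direction. Without saline rat 6 the Fos difference was 1.78 and the Egr1 difference was 1.58. All 6 genes then had an unadjusted p under 0.05, as did 1714 of the 13260 genes tested, in either direction.

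Fold changes of DOX high over saline hearts were smaller when only rats 30 to 39 were compared, 6 DOX high against 4 saline. The log2 fold change was then 1.24 ± 0.43 for Atf3, 1.17 ± 0.38 for Myc, 1.12 ± 0.21 for Junb, 0.96 ± 0.36 for Fos, 0.66 ± 0.25 for Egr1 and 0.08 ± 0.18 for Jun. No gene passed the adjusted p threshold of 0.05 there (edgeR; 1891 had an unadjusted p under 0.05), and so none of the 6 factors did. With the number range as a covariate over all 16 hearts the values were close to these, 1.25 for Atf3, 1.17 for Myc and 1.12 for Junb, and 2 genes passed. With saline rat 37 left out of rats 30 to 39, 307 genes passed, among them Junb (1.27 ± 0.23), Atf3 (1.87 ± 0.35) and Myc (1.91 ± 0.18). That fit was chosen after seeing the data. Rat 37 was the highest saline heart in CPM for these 3 genes, so leaving it out was bound to enlarge their differences. By the study's reporting summary the numbers ran on from animal to animal whatever the treatment, and treatment was assigned at random by cage. The cage of each rat was not given. The fits therefore treat rats as independent, and their SE may be too small if rats of a cage were alike. What else changed along the numbers was not given in the sources used here, and the part of animal number in the difference was not tested beyond these fits.

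**Figure D5:**
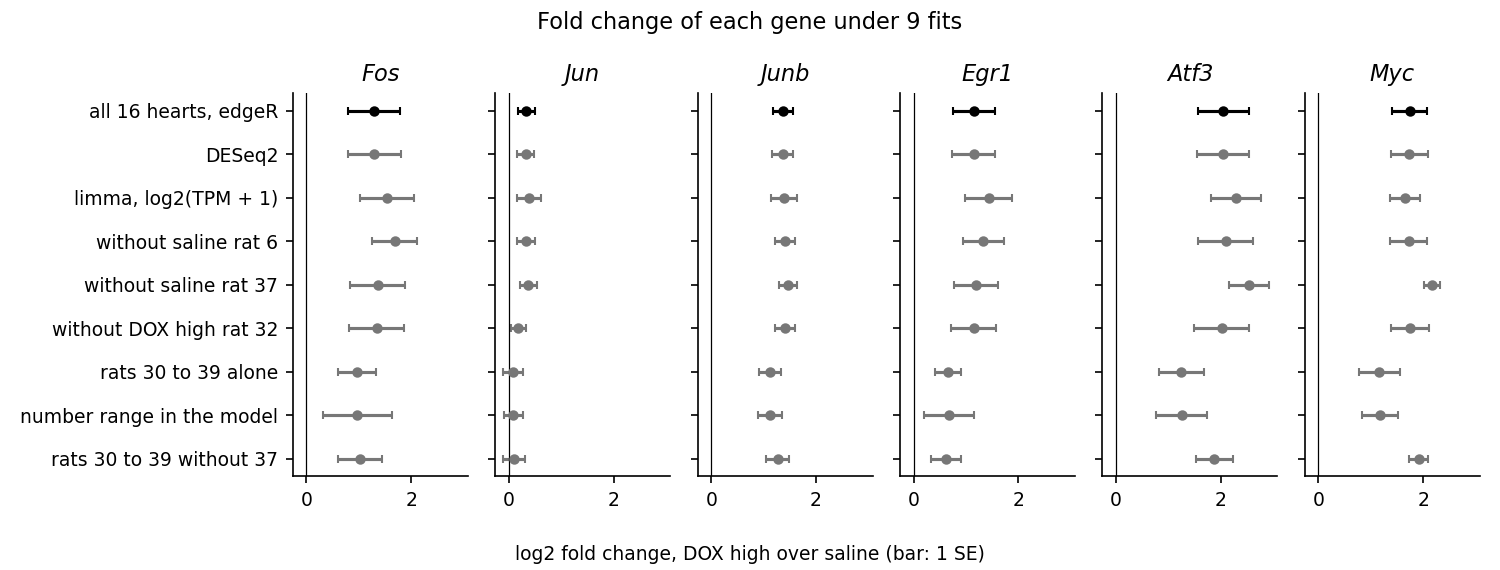
Log2 fold change of DOX high over saline hearts (points) with 1 SE (bars) for each factor under 9 fits, with the edgeR fit of all 16 hearts in black. Every point lies above 0, Jun lies closest to it at 0.08 among rats 30 to 39 alone, and Atf3 moves from 2.05 to 1.24 there.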

How the data were processed

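RNA of heart tissue from 10 saline and 6 DOX high rats was enriched for polyadenylated transcripts and sequenced by the authors as paired reads with a strand-specific kit. Fragments were aligned to Rnor_6.0 with HISAT2 and counted on Ensembl exons with featureCounts (Subread 1.5.0, per the submitters' processing notes) without use of strand, so reads of overlapping antisense genes cannot be told apart. The counts were deposited as whole fragments for each gene, without normalization. TPM values were derived by the authors from those counts, each divided by its gene's length and brought to 1 common library total, and 1 TPM cell is NA.

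Both groups were compared on the counts with edgeR 4.0.16 in R 4.3.3 (filterByExpr, TMM, glmQLFit and glmQLFTest, Benjamini-Hochberg adjusted p under 0.05 over all genes kept), without covariates. SE is the log2 fold change over the root of F. Log2 CPM had a prior count of 2. Saline rats 34 to 37 and 5 to 10 were compared in the same way. Alternatives were DESeq2 1.42.0, limma 3.58.1 on log2 TPM with 1 or 0.1 added, upper-quartile scaling, other filters, number ranges, an adjusted p under 0.01, and each rat left out. The fits were tested on simulated data. At 13784896 to 18025615 fragments per library, counting error adds to the spread between rats for low Fos, Atf3 and Myc values.

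The members and lists were chosen with earlier results of these data known. The rule for named genes was all 6 members, the genes most like them across hearts, and genes of other immediate early, upstream and target lists. None of the Ensembl identifiers (0 of 32545) matched the name tables used here, so those lists and the cell type markers are not reported, and other genes are given by identifier. Names of the 6 factors come from their stated identifiers. As a check, the gene length behind the deposited TPM was 1.732 times as long for Jun as for Junb, and the RefSeq gene spans, single exons in both, gave 1.733.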

Additional observations from a re-analysis of the deposited data

Results flagged for a closer look

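Dixon's test was run on 14 sets of values, the TPM of 6 factors and the Jun to Junb ratio in each group. In 4 of them a heart lay far from the others. The test's rate of about 1 in 20 sets holds for independent sets of normally distributed values. These TPM were not log-transformed, and saline Fos had a mean of 9.19 beside a median of 4.18. The sets also share hearts, so the 4 are a description and are not set against that rate. Fos in saline rat 6 was 35.11 TPM, and the next saline heart, rat 36, was at 14.41 TPM. Atf3 in saline rat 37 was 26.75 TPM beside 12.94 TPM in the next saline heart. Myc in saline rat 37 was 11.8 TPM beside 4.073 TPM in the next. Jun in DOX high rat 32 was 151.8 TPM beside 73.12 TPM in the next DOX high heart. On the TMM-scaled CPM scale the same hearts were highest in their groups, with 30.14 CPM beside 16.1 for Fos, 52.52 beside 22.79 for Atf3, 18.71 beside 5.644 for Myc and 243.7 beside 172.0 for Jun.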

How the results depend on the processing

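All 6 factors were higher in DOX high hearts in each of the 27 alternatives. Among these, the adjusted p under 0.01 reused the fold changes of the main fit, so its direction could not differ. The number past the threshold was 3 and ranged from 2 to 4 with 1 rat left out. It was 0 in rats 30 to 39 alone and 0 with the number range as a covariate, where Junb, Atf3 and Myc had adjusted p of 0.0841, 0.284 and 0.173 (edgeR). Egr1 also passed with DESeq2 (adjusted p = 0.0437), and Atf3 missed an adjusted p under 0.01 and, chosen after seeing the data, the covariate fit without saline rat 37 (adjusted p = 0.054, edgeR). The count over all genes was 851, and it was 1574 with DESeq2, 255 and 285 with limma on log2(TPM + 1) and log2(TPM + 0.1), and 110 at an adjusted p under 0.01. It was 0 in rats 30 to 39 alone (1891 at an unadjusted p under 0.05 by edgeR, the only tool run there) and 2 with the number range as a covariate. It was 307 and 347, respectively, when saline rat 37 was also left out, 2 alternatives added after seeing the data. With 1 rat left out it ranged from 345 (DOX high rat 38) to 1762 (saline rat 37). Between the saline number ranges 0 genes passed with edgeR, 22 with DESeq2, and 0 to 1 with 1 rat left out. The median r of the 15 pairs, 0.846, was 0.656 as deviations from the group means and 0.184 in DOX high hearts alone. The cause of these shifts was not tested. No paired analysis was possible because no animal number occurs in both groups. Other gene lists were not run, since identifiers could not be matched to names. Depth limits the low Fos, Atf3 and Myc values.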
